A study of Mus musculus with 6 samples.

Results

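The genes described here are 10 of the 22328 named on the array: Camk4, 5 further kinases of the calcium and calmodulin cascade, the calcineurin subunit Ppp3ca and 3 NFAT transcription factors. Camk4 was selected on its lower signal with miR-26a on these arrays, and the other 9 were chosen by name as its relatives and as members of the calcineurin pathway. They are measured by 21 of the 55681 probes, each a 60-base oligonucleotide. Of these 21 probes, 19 carry a transcript accession found in the RefSeq gene table, and all 19 have the same symbol there.

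RNA came from an established mouse pre-B cell line, which has the genotype SLP-65-/- LAT-/- and was grown in excess IL-7. Cells had been infected with a retroviral vector, either an empty control vector, a vector for hsa-miR-26a-2 or a sponge that sequesters the miR-26 family, and were selected with puromycin. Each of the 3 groups has 2 arrays, 1 from each of 2 experiments with separately generated clones, and all 6 single-colour arrays lay on 1 slide. The model is 1 cell line, and no array of a scrambled sponge is among the 6, so an effect of carrying a sponge transcript as such cannot be told apart from uptake of miR-26.

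A rise of calcium in a lymphocyte loads calmodulin, which then switches on both a phosphatase and a family of kinases. Calcineurin, the phosphatase, removes phosphates from NFAT proteins so that they enter the nucleus. CaM kinase kinases phosphorylate CaM kinase I and CaM kinase IV, and CaM kinase IV acts largely in the nucleus on CREB and related factors, whereas CaM kinase II activates itself by phosphorylation among its own subunits.

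The sequences that the constructs raise or sequester are those of the miR-26 family, shown from RefSeq (GRCm38.p6) with the seed, bases 2 to 8, in capitals.
mmu-miR-26a-5p: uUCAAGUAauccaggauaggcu
mmu-miR-26b-5p: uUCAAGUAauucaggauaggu
The 2 miRNAs share the seed, and from 1 at the 5′ end of miR-26a they differ by C11U and C21U, with miR-26b 1 base shorter at 21 bases. The first is encoded at 2 loci of the mouse genome and the second at 1. The DNA word that pairs with this seed, TACTTGA, was looked for on both strands of the probes themselves. It occurs in 240 of all 55681 probes (0.431%) and its reverse complement TCAAGTA in 218 (0.392%), and neither is in any of the 21 probes of the 10 genes. This describes only the stretches that the probes cover.

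All 10 listed pre-B cell markers were well above background on all 6 arrays. Rag1, which cuts DNA during V(D)J recombination, had normalized intensities of 672 and 834 in control, 94.0 and 197 in miR-26a and 640.2 and 762 in sponge cells, naming experiment 1 first as in all that follows. Dntt, which adds bases at the same joints, gave 7516 and 6942 in control, 3141 and 3535 in miR-26a and 7692 and 7511 in sponge cells. Both were lower on each miR-26a array than on any other, and both fell against control, with log2 changes of -2.46 (adjusted p = 0.00546 in limma) for Rag1 and -1.12 (adjusted p = 0.00538) for Dntt. The other 8 did not pass, with changes from -0.22 for Pax5 to 0.19 for Il7r, so 2 of the 10 were called beside 9.72% of all probes. In bulk RNA, fewer cells that express a gene and less of its RNA per cell cannot be told apart.

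Camk4 is also a T cell gene, so T cell markers were measured beside it. Of 8 such markers, 4 were well above background on every array (Cd3e, Cd4, Lck and Zap70), while Cd3g and Cd8a were not on any. With miR-26a against control these 4 had log2 changes of -0.08 for Cd3e, -0.03 for Cd4, -0.44 for Lck and -0.24 for Zap70, and none passed (adjusted p = 0.687, 0.881, 0.120 and 0.193). All 4 were negative, although Cd3e had -0.29 and 0.12 in the 2 experiments. With the sponge against control the changes were -0.29 for Cd3e, -0.32 for Cd4, 0.01 for Lck and 0.02 for Zap70. None of these passed (adjusted p = 0.293, 0.223, 0.988 and 0.932 in limma). The part of such markers in the Camk4 values was not tested. The other 2 of the 8 were too dim to be tested. Cd247 read 20.3 and 15.5 in control, 8.05 and 9.73 in miR-26a and 12.7 and 9.71 in sponge cells. Only its control arrays were well above background. By the bound explained below for the dimmer Camk4 probes, it was at least 1.503-fold lower with miR-26a and at least 1.506-fold lower with the sponge. Cd3d read 11.2 and 3.53, then 16.2 and 8.31, then 18.1 and 6.93, and was well above background on 2 arrays, 1 with miR-26a and 1 with the sponge. Of the myeloid list 3 of 8 genes were well above background on every array, of the NK cell list 1 of 4 and of the neuronal list 3 of 4. The myeloid genes Csf1r, Itgam and Elane had log2 changes against control of -0.03, 0.06 and -0.02 with miR-26a. With the sponge they had -0.69, -0.13 and -0.19. The NK cell gene Klrb1c had -0.49 with miR-26a and -0.18 with the sponge. None of these changes passed in limma. In the neuronal list Tubb3 rose with miR-26a, from 624 and 439 in control to 1507 and 788 (log2 change 1.06, adjusted p = 0.00879). The rest of that list did not follow it, with 0.06 for Snap25 (adjusted p = 0.796, and 0.27 and -0.15 by experiment), -0.53 and 0.99 by experiment for the untested Camk2a, and Syt1 not well above background on any array. The probes of the deleted genes were bright on all arrays, with 42299 and 49588 in control, 30563 and 34697 in miR-26a and 49892 and 49341 in sponge cells for Blnk, which encodes SLP-65. Lat read 1115 and 1242 in control, 1146 and 1101 in miR-26a and 1147 and 1258 in sponge cells. Blnk was lower with miR-26a, with log2 changes of -0.49 against control (adjusted p = 0.0272 in limma) and -0.61 against the sponge (adjusted p = 0.0121). Lat did not pass in any comparison. Where these probes lie relative to the deletions was not analysed, so they check nothing about the genotype.

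The scanner software marks spots that stand well above background. Such a mark was present on all 6 arrays for 14 of the 21 probes, on some of them for 3 and on none for 4. Probes were tested if they carried the mark on 1 array or more and if their signal exceeded 50 on 4 arrays or more, which 15 of the 21 probes and 8 of the 10 genes met. Camk1 and Nfatc2 had no tested probe. Camk4 entered through its control and sponge arrays, and since it was selected on its level with miR-26a its values against miR-26a are given with no test.

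Camk4 encodes CaM kinase IV, and its 3 probes lie on chromosome 18 of mm9. The brightest, A_55_P2097206 (33355362 to 33355421), had normalized intensities of 129.7 and 126 in control, 35.7 and 14.1 in miR-26a and 172 and 159 in sponge cells. Both miR-26a arrays were below every other array, both sponge arrays were above both control arrays, and the value of 14.1 was not well above background. The log2 difference between miR-26a and control was -1.86 in experiment 1 and -3.15 in experiment 2, and against the sponge it was -2.27 and -3.49. The mean log2 differences came to 5.68-fold less signal than control and 7.34-fold less than the sponge, with only 1 of the 2 miR-26a arrays well above background, and neither is a lower limit. Without miR-26a replicate 2, which read 14.1, the log2 differences of Camk4 were -1.88 and -2.25. They also depend on how background is removed, and with normexp background correction and an offset of 50 they were -1.09 against control and -1.33 against the sponge.

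Camk4 was chosen on its level with miR-26a, which used the control arrays that the sponge arrays are compared with here. Its brightest probe also met the signal limit only through its control and sponge arrays. The p-values that follow are therefore not independent of how the probe was chosen and let in. The sponge arrays exceeded control for this probe by 0.41 and 0.33 on the log2 scale in the 2 experiments. The fitted log2 change was 0.37 with a standard error of 0.31, and it did not pass the test (adjusted p = 0.586, limma with Benjamini-Hochberg adjustment over 20168 probes). Without either miR-26a array, whose spread enters the shared error, the adjusted p was 0.105, and over 15 alternatives it ranged from 0.105 to 0.996. The change was 0.03 without control replicate 1, 0.71 without control replicate 2, 0.66 without sponge replicate 1 and 0.08 without sponge replicate 2. A p that misses the threshold does not show that the groups were alike.

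The other Camk4 probes are dimmer, and for them a bound is given. It sets the mean of the brighter group against the mean of the dimmer group, both on the log2 scale, after each array of the dimmer group is given the higher of the probe's own signal and the lowest signal among the probes well above background on that array. That lowest signal ranged from 10.8 to 12.9 over the 6 arrays. A_55_P2096324 (33099131 to 33099190) read 22.1 and 12.5 in control, 8.14 and 2.86 in miR-26a and 20.8 and 15.1 in sponge cells. A_66_P108791 (33345703 to 33345763) read 14.0 and 15.0 in control, 5.32 and 2.44 in miR-26a and 31.9 and 17.4 in sponge cells. For both probes the miR-26a arrays were again the lowest and neither was well above background. For the first probe the bound came to 1.40-fold lower with miR-26a than in control. It is not a lower limit, because only 1 of its control arrays was well above background. Against sponge cells the first probe was at least 1.498-fold lower. For the second probe the bounds were at least 1.22-fold against control and at least 1.99-fold against the sponge. The 3 probes lie 246572 and 9659 bases apart along the gene, so the lower signal with miR-26a was seen in separate stretches of it. With the sponge the groups overlapped at the first probe and lay apart at the second, whose sponge arrays were both above its control arrays.

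**Figure D1:**
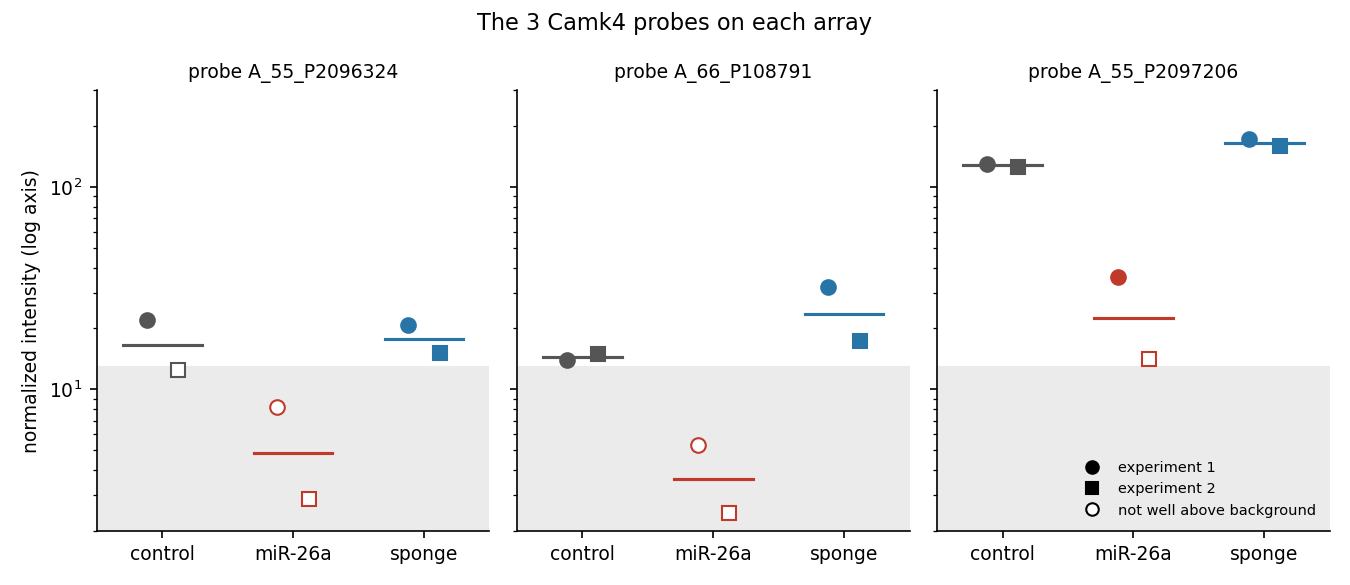
Normalized intensity of the 3 Camk4 probes on each of the 6 arrays (log axis), by group, with circles for experiment 1, squares for experiment 2, open symbols for arrays not well above background and lines at the mean of the log2 values. The grey band ends at 12.9, the highest of the 6 arrays' lowest signals well above background, and at each probe the miR-26a arrays are the lowest, with 35.7 and 14.1 at A_55_P2097206.

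The genes whose pattern was most like that of A_55_P2097206 were taken as those with the smallest root mean square difference over the 6 arrays, after each probe was centred on its own mean log2 value. Among them were Cd5 (0.34), a surface receptor of T cells and some B cells, Acy3 (0.38), Scn4b (0.41) and Tmem255a (0.42), where the median over 20167 other tested probes was 1.35. Cd5 read 99.8 and 73.1 in control, 28.1 and 16.6 in miR-26a and 129 and 92.8 in sponge cells. As in Camk4 the miR-26a arrays were lowest, and within each experiment the sponge array of Cd5 was above its control array, by 0.37 and 0.34 on the log2 scale. Sponge minus control by experiment was -0.07 and 0.18 for Acy3, 0.21 and 0.05 for Scn4b and 0.32 and 0.26 for Tmem255a. These genes were picked for their likeness to Camk4, so their levels are a description.

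Camkk2, a CaM kinase kinase that acts upstream of CaM kinase I and IV, had 2 tested probes. A_55_P2329923 read 4151 and 4308 in control, 3881 and 3958 in miR-26a and 4683 and 4451 in sponge cells. Its groups did not overlap, with miR-26a lowest and sponge highest, but the spacing was narrow and no comparison passed. The log2 changes were -0.11 for miR-26a against control (adjusted p = 0.388), 0.11 for sponge against control (adjusted p = 0.481) and -0.22 for miR-26a against sponge (adjusted p = 0.0902). A_55_P2125684 gave 126 and 95.7 in control, 111 and 115 in miR-26a and 137 and 112 in sponge cells, and these groups overlapped.

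Camk1d, a CaM kinase I isoform and a substrate of the CaM kinase kinases, was the member other than Camk4 that differed most between miR-26a and sponge cells. Its probe A_55_P1955147 (mm9, chromosome 2, 5214566 to 5214625) had intensities of 380.2 and 373 in control, 208 and 273 in miR-26a and 525 and 508 in sponge cells. The 3 groups did not overlap, with miR-26a lowest, control between and sponge highest in each experiment. Camk1d fell with miR-26a, with a log2 change of -0.66 (standard error 0.12), 1.58-fold lower than control at an adjusted p of 0.0334 in limma. By experiment the change was -0.87 and -0.45. Against the sponge it was -1.12, or 2.17-fold lower (adjusted p = 0.00668), with -1.34 and -0.90 in the 2 experiments. Sponge minus control was 0.46 (0.47 and 0.45 by experiment), which did not pass (adjusted p = 0.231, and 0.0865 to 0.738 over 16 alternatives). The study's limits for the sponge were at least 20% higher with an unadjusted p under 0.1. At these an unpaired t-test run here took 242 of all probes. A_55_P1955147 was the only probe of the 10 genes among them, while 0 probes passed after adjustment. At the limits for miR-26a, at least 20% lower with an unadjusted p under 0.05, the same test took 675 probes, and A_55_P1955147 was not among them.

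The miR-26a call for Camk1d held in 8 of 16 alternatives. The adjusted p was 0.0885 with no replicate block, 0.334 with no filter, 0.160 with the looser filter, 0.193 without control replicate 1, 0.107 without control replicate 2 and 0.0685 without sponge replicate 1 or 2, and its range over all 16 was 0.00687 to 0.414. The difference from the sponge held in 11 of 16, with an adjusted p of 0.0751 without sponge replicate 1 and 0.0604 without sponge replicate 2 and a range from 0.000559 to 0.334 that includes 0.195 with no filter and 0.0768 with the looser filter. The other Camk1d probe, A_52_P131353, was not well above background on any array, nor was the probe of Camk1, which has 10 spots on each array and read between 2.71 and 3.34.

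Camk2d and Camk2g encode subunits of CaM kinase II, the multimeric kinase of the family. Of 4 tested Camk2d probes, A_52_P188261 read 8203 and 8139 in control, 7015 and 7765 in miR-26a and 5617 and 6580.1 in sponge cells. The sponge arrays were the lowest and the control arrays the highest, yet the sponge change of -0.43 (standard error 0.083) did not pass (adjusted p = 0.220), nor did the change of -0.15 with miR-26a (adjusted p = 0.325). A_55_P1955172 read 395 and 398 in control, 481 and 491 in miR-26a and 423 and 368 in sponge cells. Here both miR-26a arrays were above all the others, and the change of 0.29 against control did not pass (adjusted p = 0.0923). The difference of 0.30 between miR-26a and sponge at this probe had an adjusted p of 0.0662, which was 0.0457 with normexp correction and ranged from 0.0457 to 0.434 over 15 alternatives. At A_52_P188261 the difference of 0.28 had 0.0754, which was 0.0460 with normexp and ranged from 0.0460 to 0.513.

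The brightest Camk2d probe, A_52_P428745, gave 21714 and 21604 in control, 20712 and 26312 in miR-26a and 22340.2 and 21523 in sponge cells. At A_55_P1978830 the values were 8796 and 9079, then 8299 and 9314, then 7993 and 8788 in the same order. In both the miR-26a arrays spanned the control arrays, so the 4 probes of this gene do not show 1 direction. Camk2g had 4277 and 3751 in control, 4221 and 4094 in miR-26a and 4824 and 4027 in sponge cells, and its groups overlapped in every comparison.

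**Figure D2:**
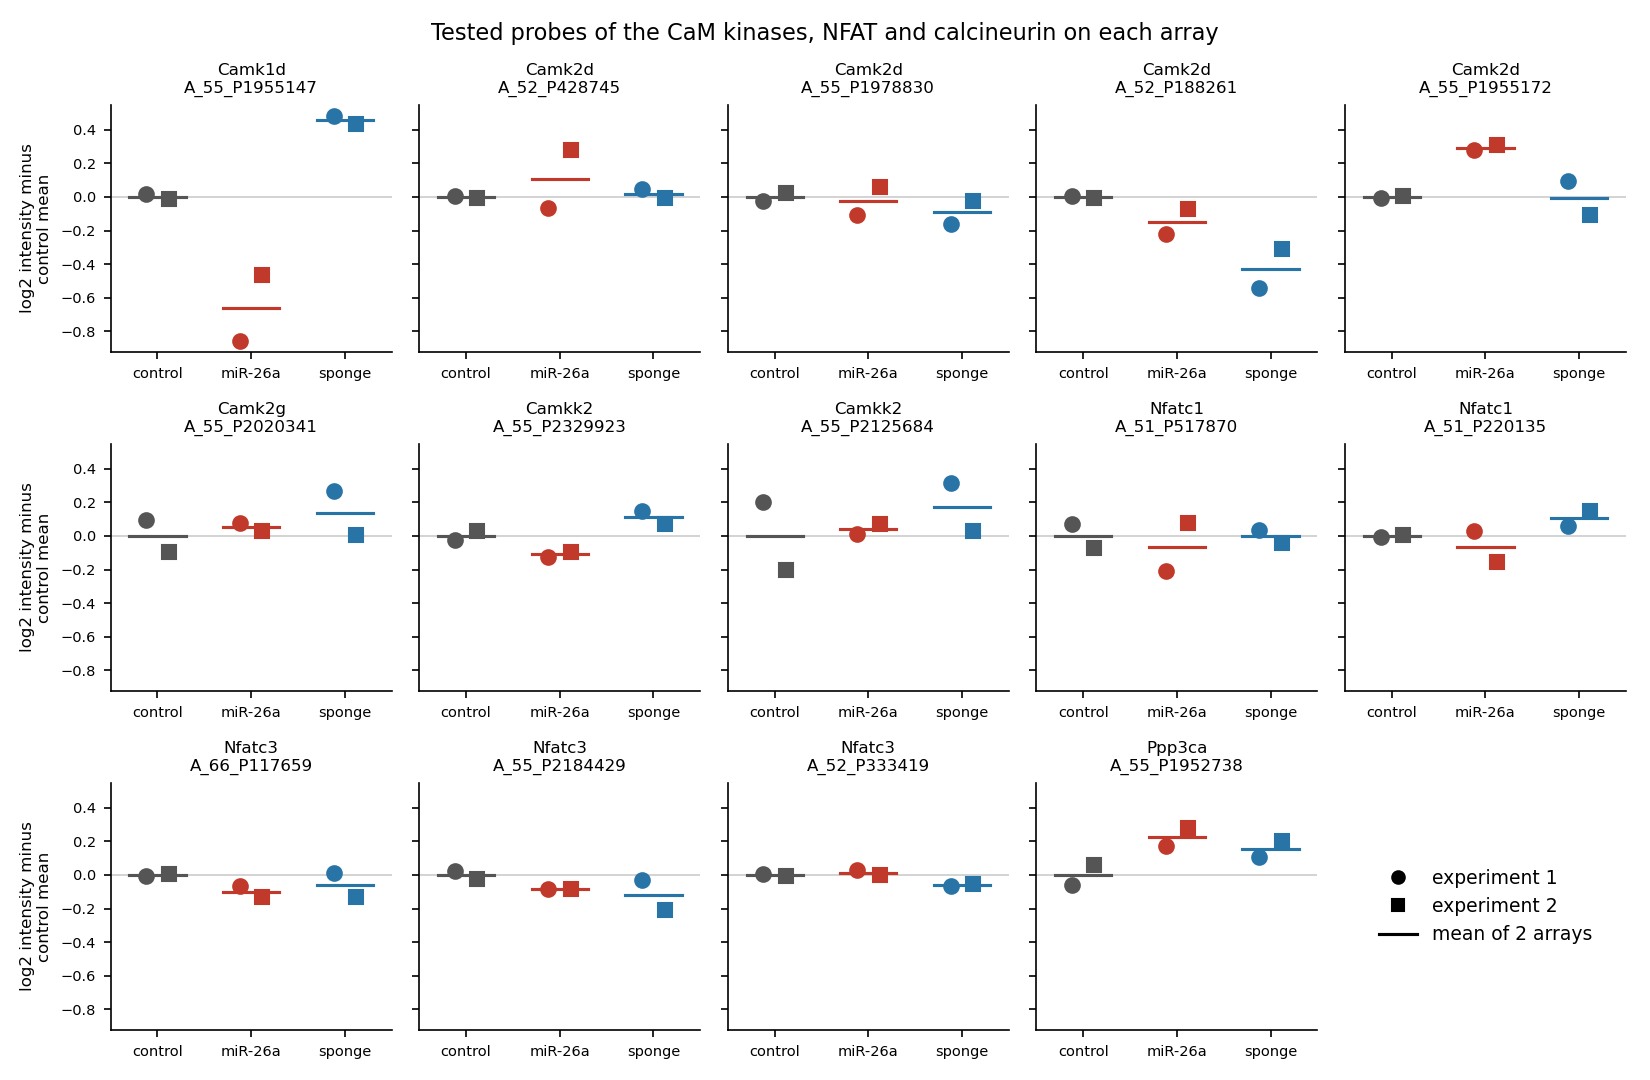
Log2 intensity minus the control mean of that probe on each of the 6 arrays, for the 14 tested probes other than Camk4, with circles for experiment 1, squares for experiment 2 and a line at the mean of the 2 arrays. Camk1d stands lowest with miR-26a and highest with the sponge, while most other probes stay within 0.3 of their control mean.

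Ppp3ca encodes a catalytic subunit of calcineurin. Its probe read 6742 and 7327 in control, 7936 and 8526 in miR-26a and 7574 and 8092 in sponge cells. Both construct groups lay above control without overlap. The log2 change was 0.23 with miR-26a (standard error 0.065, adjusted p = 0.0923) and 0.16 with the sponge (adjusted p = 0.328), and neither passed.

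NFAT proteins are the substrates through which calcineurin reaches the nucleus. Nfatc1, which encodes NFATc1, had 2 tested probes. A_51_P517870 read 1708 and 1551 in control, 1408 and 1720.2 in miR-26a and 1672 and 1578 in sponge cells, and A_51_P220135 read 324 and 328, then 332 and 292, then 339 and 362. At the first probe all 3 groups overlapped, and at the second only the sponge arrays lay above the rest. Both probes of Nfatc2 were below background detection, with intensities from 2.38 to 8.51, so neither a level nor a change can be given.

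Nfatc3 had 3 tested probes whose values were close in all groups. A_66_P117659 read 1889 and 1907 in control, 1811 and 1734 in miR-26a and 1915 and 1731 in sponge cells. A_55_P2184429 read 283 and 274, then 263 and 263, then 273 and 241, and A_52_P333419 read 242 and 239, then 245 and 240.0, then 229.8 and 231. The first 2 were slightly lower on the miR-26a arrays than in control and the third was not, and none passed the test. Over the 6 probes of NFAT and calcineurin, the log2 changes with miR-26a ran from -0.10 to 0.23 and those with the sponge from -0.12 to 0.16.

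Counted together, 1 of the 14 tested probes other than Camk4 was lower with miR-26a than with control at an adjusted p under 0.05 and 0 were higher, where of all 20168 tested probes 9.72% passed, 5.12% lower and 4.60% higher. A count of 1 in 14 is near that background. For comparison, 3 of the 14 and 5511 of all probes had an unadjusted p under 0.05 in limma, and the unpaired t-test called 0 probes after adjustment. The median log2 change was -0.04 over the 14 and 0.01 over all tested probes, and the median size of change was 0.09 against 0.12. With the sponge 0 of the 14 passed in either direction in limma, against a background of 0.00992% of all probes, and 2 of the 14 and 3222 of all had an unadjusted p under 0.05, while the unpaired t-test again called 0. The median sponge change was 0.01 over the 14 and 0.01 over all, and it ran from -0.43 to 0.46. Between miR-26a and sponge, 1 of the 14 was lower and 0 were higher, beside 16.8% of all probes, 8.55% lower and 8.22% higher, and 4 of the 14 had an unadjusted p under 0.05. The comparisons with control share the same control arrays, so their values are set side by side and not correlated.

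**Figure D3:**
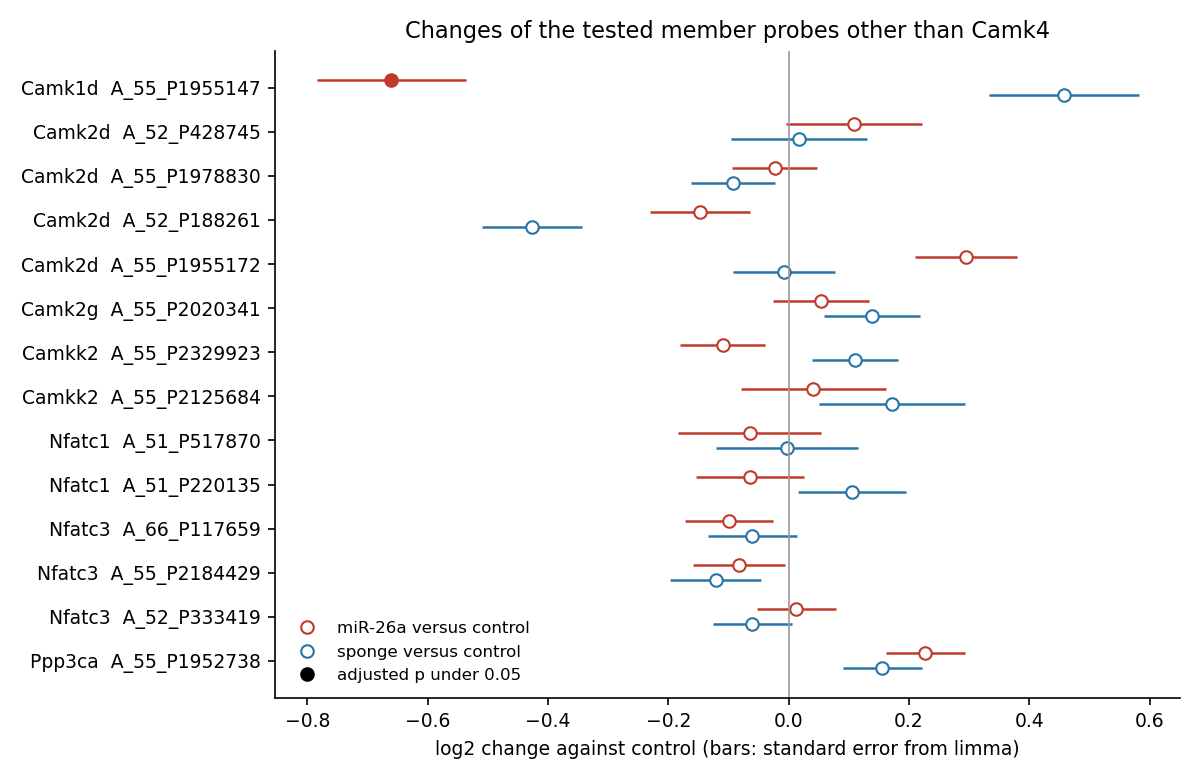
Log2 change against control, with the standard error from limma as bars, for the 14 tested probes other than Camk4, red for miR-26a and blue for the sponge. The filled symbol marks the probe with an adjusted p under 0.05, Camk1d at -0.66 with miR-26a; its sponge change of 0.46 is open.

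Further genes of the pathway were taken from 8 lists with 81 genes, all on the array, of which 57 were tested by their brightest probe. With miR-26a 1 of the 57 was lower than control and 1 was higher, beside 5.12% and 4.60% of all probes. An unadjusted p under 0.05 in limma was seen for 14 of the 57, beside 5511 of all 20168 probes. With the sponge 0 of the 57 passed against control in limma, beside 0.00992% of all probes, and 0 by the unpaired t-test. Here 8 of the 57 had an unadjusted p under 0.05 in limma, beside 3222 of all 20168 probes. Between miR-26a and sponge, 3 were lower and 4 higher, with 19 at an unadjusted p under 0.05, beside 8.55% of all probes lower and 8.22% higher and 6946 of 20168 at an unadjusted p under 0.05. Thus 7 of 57 was not above the share of 16.8% over all probes. The medians were -0.01, 0.01 and -0.01 in the 3 comparisons, next to 0.01, 0.01 and 0.02 over all tested probes.

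Of the NFAT response genes, 3 of 10 were tested, and 1 was called with miR-26a against control and against the sponge, beside 9.72% and 16.8% of all probes. Nr4a1, a nuclear receptor induced by antigen receptor signals, read 347 and 459.9 in control, 261 and 337 in miR-26a and 407 and 541 in sponge cells. Within each experiment it was lowest with miR-26a and highest with the sponge. It fell with miR-26a, with log2 changes of -0.43 against control (adjusted p = 0.01998) and -0.66 against the sponge (adjusted p = 0.00496). The other 2 tested genes had changes of the opposite sign against control that did not pass, 0.17 for Nr4a2 (adjusted p = 0.407) and 0.17 for Cd69 (adjusted p = 0.461), and the median of the 3 was 0.17. Tnf was too dim to be tested and well above background on only 1 array. The bound for Tnf came to 1.40-fold higher with miR-26a than in control. It is not a lower limit, because the mean with miR-26a includes an array not well above background. For Nr4a1 the adjusted p against control was 0.153 without control replicate 1, 0.157 without control replicate 2 and 0.0702 without miR-26a replicate 2, within a range of 0.0101 to 0.602, and against the sponge it was 0.0539 without sponge replicate 1 and 0.0577 without sponge replicate 2.

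Rcan1, a calcineurin inhibitor that NFAT itself induces, was the 1 gene called of 6 tested calcineurin regulators, beside 9.72% of all probes with miR-26a against control and 16.8% against the sponge. The other 5 had changes from -0.18 to 0.06 against control, and the median of the 6 was -0.08. Rcan1 read 209 and 195 in control, 265 and 253 in miR-26a and 204 and 188 in sponge cells. Both miR-26a arrays were above all others. It rose by 0.36 against control (adjusted p = 0.0320) and was 0.40 higher than with the sponge (adjusted p = 0.0174). The first call was lost when any 1 of the 6 arrays was left out, with adjusted p-values of 0.209 and 0.217 without control replicates 1 and 2, 0.0732 and 0.117 without miR-26a replicates 1 and 2 and 0.0635 without either sponge replicate, within a range of 0.0219 to 0.331. The second was lost without miR-26a replicate 2 (0.0596), sponge replicate 1 (0.0918) or sponge replicate 2 (0.0909). Its relative Rcan2 was too dim to be tested and went the other way, with 31.5 and 23.5 in control, 12.4 and 9.29 in miR-26a and 55.6 and 42.7 in sponge cells. With 1 miR-26a array not well above background, the bounds for miR-26a were at least 2.16-fold below control and at least 3.86-fold below the sponge. Akap5, of the same list and also too dim to be tested, went with Rcan1. It read 11.2 and 7.81 in control, 15.8 and 15.3 in miR-26a and 10.2 and 14.9 in sponge cells. Neither control array was well above background, and Akap5 was at least 1.40-fold higher with miR-26a than in control. The remaining untested regulator, Chp2, was not well above background on any array.

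The list of other CaM kinases also holds related genes, and its 6 tested genes were Camk1g, Camkk1, Camk2n2, Cask, Dapk3 and Eef2k. Of these 6, 4 differed between miR-26a and sponge and 0 between miR-26a and control in limma. Between miR-26a and control 3 had an unadjusted p under 0.05 in limma, and the unpaired t-test called 0. Over all probes the shares that passed were 16.8% and 9.72%. Camk1g, a further CaM kinase I isoform, read 934 and 741 in control, 743 and 495 in miR-26a and 975 and 849 in sponge cells, a log2 difference of -0.58 from the sponge (adjusted p = 0.0217). Camkk1, the other CaM kinase kinase, read 260.2 and 209.7, then 211 and 189.7, then 323 and 250.1, a difference of -0.51 (adjusted p = 0.0158). For both the miR-26a arrays lay below those of the sponge. Within each experiment they were also below control, with log2 differences of -0.33 and -0.58 for Camk1g and -0.30 and -0.14 for Camkk1 (adjusted p = 0.0546 and 0.148). The first of these passed in 4 of 16 alternatives, over which it ranged from 0.0207 to 0.647. Dapk3, a death-associated kinase, was higher with miR-26a than with the sponge by 0.38 (adjusted p = 0.0301), with 269 and 287 against 219 and 208. Cask, a scaffold protein with a CaM kinase domain, was higher by 0.66 at A_55_P2052799 (adjusted p = 0.0159), with 806 and 847 against 568 and 484. The other tested Cask probe went the opposite way, by -0.23 (adjusted p = 0.119). The dimmer, untested Cask probes A_51_P167232 and A_55_P2052789 were each 0.26 higher with miR-26a than with the sponge, the second with overlapping groups. Leaving out either sponge array ended the calls of Camk1g (0.0752 and 0.113), Camkk1 (0.104 and 0.0733) and Dapk3 (0.114 and 0.137), and sponge replicate 2 that of Cask (0.0736). Dapk3 was also lost without either control array (0.0596) or miR-26a replicate 2 (0.116).

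Of 14 tested CaM kinase targets, the coactivator gene Crebbp was higher with miR-26a than with the sponge by 0.38 (adjusted p = 0.0214). It read 4312 and 5117 in control, 4343 and 5414 in miR-26a and 3335 and 4171 in sponge cells, and in each experiment the sponge array was lowest while the control and miR-26a arrays were close. Its other tested probe gave -0.15 (adjusted p = 0.222), and the call was lost without miR-26a replicate 1 (0.0568) or 2 (0.0724) or sponge replicate 1 (0.113) or 2 (0.0909). The calmodulin genes Calm2 and Calm3 and the 3 tested calcineurin subunits, Ppp3cb, Ppp3cc and Ppp3r1, did not pass in any comparison by their brightest probe. At its probe Ppp3cb read from 3127 to 3928 over the 6 arrays. A dimmer Calm3 probe, A_52_P140356, was 0.30 higher with miR-26a than with the sponge (adjusted p = 0.0462), while the brightest, A_55_P2021841, went the opposite way by -0.21 (adjusted p = 0.0975). The call at the dimmer probe held in 3 of 15 alternatives and was lost when any 1 of the 6 arrays was left out. Calml4 and the calcineurin subunit Ppp3r2 were not well above background on any array, and 0 of the 14 tested calcium entry genes and 0 of the 8 tested genes of other NFAT factors and NFAT kinases passed in limma. At an unadjusted p under 0.05 the calcium entry genes numbered 3 with miR-26a against control, 0 with the sponge and 5 between miR-26a and sponge, and those of the NFAT list 2, 0 and 2, while the unpaired t-test called 0 of them. Over all 20168 probes 9.72%, 0.00992% and 16.8% passed in these comparisons, and 5511, 3222 and 6946 had an unadjusted p under 0.05. With no filter, with the looser filter or by the unpaired t-test none of the named pathway calls held, and with no replicate block only that of Cask did.

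**Figure D4:**
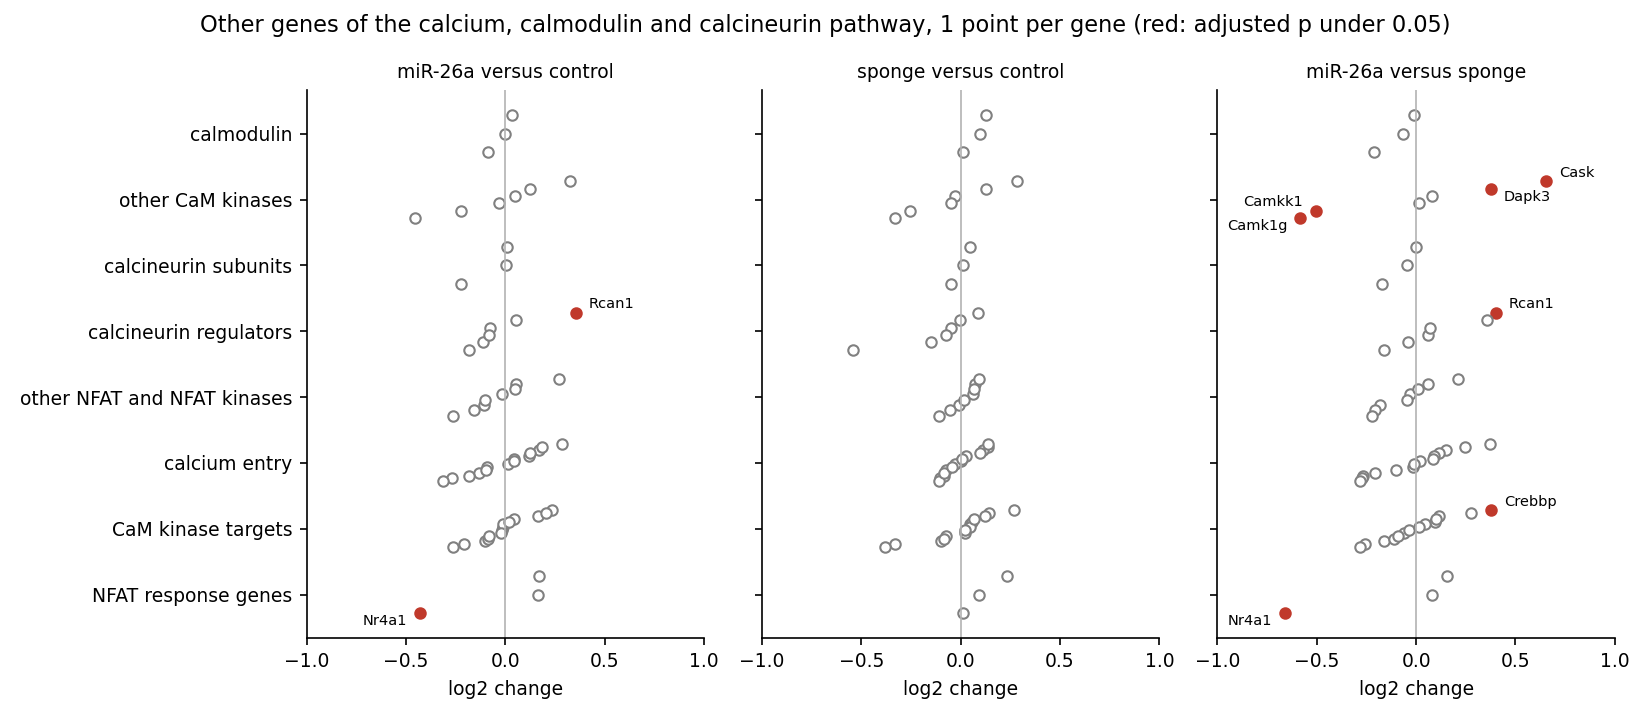
Log2 change of the 57 tested pathway genes in the 3 comparisons, 1 point per gene by its brightest probe, grouped by list, with red for an adjusted p under 0.05. Red points are Nr4a1 at -0.43 and Rcan1 at 0.36 against control and 7 genes between miR-26a and sponge, with none for sponge against control.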

How the data were processed

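The authors deposited, for each of 6 Agilent mouse arrays, the scanner output (Agilent Feature Extraction 10.7.1.1 in the submitters' notes), whose intensity values are background-subtracted and whose marks show which spots stand well above background. A series table deposited by the authors holds quantile-normalized intensity on a linear scale and was used as an alternative. Here quantile normalization was applied to the processed signals, then log2, and the spots of each probe were averaged. Control spots and outlier-marked spots were left out, except that a probe with all spots marked kept its value (0 to 7 probes per array). The spots well above background made up 48.6% to 50.2% of each array, and 2 arrays per group limit the precision. Gene names and mm9 positions are those of the array design.

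Probes well above background on 1 array or more with a signal exceeding 50 on 4 or more (20168 probes) were tested with limma 3.58.1 in R 4.3.3, with p-values adjusted by the Benjamini-Hochberg method and a threshold of 0.05. The methods state the number of arrays ambiguously, and 4 was taken. Tables and plots were made with numpy 2.4.6, pandas 2.3.3 and matplotlib 3.10.9. The fit was tested on simulated data, and as no outcome is reported here nothing is drawn from it.

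The replicate number, which the labels give and the methods treat as the experiment, entered as a block. The titles of the control arrays also quote entries of an earlier series, so their pairing with the arrays of the same number rests on the methods. Deviations from the group mean of arrays with the same number correlated across probes, at 0.38 (control and miR-26a), 0.59 (control and sponge) and 0.45 (miR-26a and sponge), and replicates correlated at 0.996 to 0.997. The arrays of replicate 1 stand in 1 column of the slide and those of replicate 2 in another, so column and experiment cannot be told apart. Both control arrays stand in row 1 of the slide, both miR-26a arrays in row 2 and both sponge arrays in row 4. Row and group therefore cannot be told apart in any comparison, and no block can separate them. With no replicate block, 312 probes passed between miR-26a and control in place of 1960, 990 in place of 3382 between miR-26a and sponge, and 2 in both fits between sponge and control.

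Members and lists were chosen with earlier results of these data known. Named are all probes of the 10 genes, pathway genes whose brightest probe passed in any comparison, the calmodulin and calcineurin subunit genes and the 5 genes most like Camk4. Some genes that these rules cover are not reported here. The further probes of Cask, the second probes of Crebbp and Calm3 and the genes Rcan2, Akap5, Chp2, Nr4a2, Cd69 and Tnf were named after their values were seen. Lists were of calmodulin, other CaM kinases, calcineurin subunits and regulators, other NFAT factors and NFAT kinases, calcium entry, CaM kinase targets and NFAT response genes, and markers of pre-B, T, myeloid and NK cells and neurons. Alternatives were no block, 75th percentile scaling, normexp with an offset of 50, the authors' values, no filter, a looser filter (well above background on 2 arrays, no signal limit), a stricter filter (both limits on all 6 arrays), array weights, an unpaired t-test with equal variances, averaging over the probes of a gene and leaving out each array. For the arrays the methods section names no test, only limits without adjustment. The legend of the figure that includes the miR-26a volcano plot names an unpaired t-test for its group comparisons. By the unpaired t-test run here 675 probes met the limits for miR-26a (at least 20% lower, p under 0.05). Those for the sponge (at least 20% higher, p under 0.1) were met by 242. With 1 slide, a slide block was not run.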

Additional observations from a re-analysis of the deposited data

How the results depend on the processing

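Probes past the threshold numbered 1960 (miR-26a against control), 2 (sponge against control) and 3382 (miR-26a against sponge), and listed pathway genes 2, 0 and 7. In the same order the probes were 312, 2 and 990 with no replicate block, 0, 0 and 0 with no filter, 2, 3 and 18 with the looser filter and 0, 0 and 0 by the unpaired t-test. Sponge against control gave 12 with 75th percentile scaling, 35 with normexp, 6 with the stricter filter and 1 with probes of a gene averaged. Leaving out 1 array gave 220 to 1559, 0 to 33 and 350 to 2359. Pathway genes for miR-26a against control and against sponge were 0 and 1 with no block or the looser filter, 0 and 0 with no filter or the unpaired t-test, 4 and 11 with normexp, 4 and 10 with the stricter filter and 4 and 7 with array weights, and leaving out 1 array gave 0 to 2 and 0 to 6. The pathway gene called with the looser filter was not among those named as called above. The filters change how many dim probes enter the fit, and the cause of the other shifts was not tested. At an unadjusted p under 0.05, limma without a filter gave 6501 and 4306 probes in the first 2 comparisons, and the unpaired t-test 2676 and 1289.

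For the 14 tested probes other than Camk4, a change of sign was seen only where a change was not called. With normexp, Nfatc3 A_66_P117659 with the sponge turned from -0.060 to 0.016. Leaving out 1 array gave these log2 ranges with miR-26a against control: Camk2d A_52_P428745 -0.080 to 0.30, Camk2g -0.037 to 0.14, Camkk2 A_55_P2125684 -0.16 to 0.24, Nfatc1 A_51_P517870 -0.27 to 0.14 and Nfatc1 A_51_P220135 -0.18 to 0.056. With the sponge against control they were -0.12 to 0.10 for Camk2d A_55_P1955172, -0.12 to 0.12 for Nfatc1 A_51_P517870 and -0.12 to 0.00 for Nfatc3 A_66_P117659. With miR-26a against sponge they were -0.10 to 0.28 for Camk2d A_52_P428745, -0.17 to 0.0060 for Camk2g, -0.33 to 0.072 for Camkk2 A_55_P2125684, -0.26 to 0.14 for Nfatc1 A_51_P517870 and -0.040 to 0.12 for Nfatc3 A_55_P2184429. A turn smaller than the standard error was not counted. Of the other values of the 15 tested probes of the 10 genes, 250 were counted as unchanged with an array left out and 6 lost a call. Under the further alternatives 402 were counted as unchanged, 7 lost and 2 gained a call. Unchanged values stayed on 1 side of the threshold, though some turned sign by less than the standard error. Camk4 values against miR-26a were not tested, so no threshold applies to those among them. Averages over a gene's probes are compared only for genes with 1 tested probe.

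Signal over background limits Camk1, Nfatc2 and the dimmer Camk4 probes, for which levels or changes are bounds or not measured. Where an array was left out, the lone array of its group was assumed to vary like the other groups.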
